A study of Mus musculus with 3 samples.

Results

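Interferon-stimulated genes are the genes that a cell switches on when interferon binds its receptors, and 41 of them were followed through healing skin wounds of the mouse. They were chosen as a fixed list of symbols, matched by Ensembl identifier to the 32285 genes counted, and 40 of the 41 had counts. *Mx1* was not analysed here. The list was split into 27 type I led genes, which are best known as targets of interferon alpha and beta, and 14 type II led genes, which are best known as targets of interferon gamma. Many of them answer to either interferon, so the names describe the lists and not the ligand at work.

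The wounds were made in the skin of C57BL/6J mice and collected on Days 3, 7 and 14, and every group carried the same genotype, without a drug or a genetic change. The tissue of each day was pooled, dissociated with enzymes at body temperature and captured as 1 library of single cells with a 3′ chemistry, which counts unique molecular identifiers (UMIs), 1 for each captured transcript molecule. The labels give the strain, the tissue and the day but no age or count of animals, and they call the wounds incisional where the methods of the study describe punch wounds. With 1 library per day, the day and the library cannot be told apart, no test between days was possible and the intervals below cover counting error only.

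Interferons alpha and beta act through the receptor chains *Ifnar1* and *Ifnar2*, and their signal reaches genes through the interferon-stimulated response element (ISRE). Interferon gamma, made mainly by T cells and natural killer cells, acts through *Ifngr1* and *Ifngr2*, and its signal reaches genes through the gamma-activated site (GAS). The induced genes block viral replication, guard cells against intracellular microbes, raise antigen presentation and recruit T cells, and sterile wounds are also known to switch on part of this response.

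From Day 3 to Day 14 the libraries came to 38133650, 120940799 and 112713257 UMIs in 5158, 22924 and 16611 barcodes, of which 4360, 19590 and 13510 were kept as cells. Barcodes shared between libraries numbered 19 to 111 and made up at most 0.834% of the smaller library. Cells were grouped into 33 clusters without the use of any of the 41 genes, and clusters were given a class from fixed markers, so that each class below is "like" its name. Macrophage-like cells numbered 2702, 9553 and 3261 on the 3 days, fibroblast-like cells 505, 6340 and 7857, neutrophil-like cells 873, 1637 and 21, and dendritic cell-like cells 239, 1062 and 471. Fibroblast-like cells of Day 3 were the deepest, with a median of 37739 UMIs, against 10020 and 9235 later. Levels are given as CPM, the UMIs of a gene divided by the sum of UMIs that the class held in its library and scaled to a total of 1000000, for classes with at least 50 cells. A 3′ UMI counts a molecule at the end of its transcript, so that levels of different genes are set side by side without scaling by length.

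These response sequences were looked for in the promoters of the 41 genes. In the RefSeq promoters of assembly GRCm38.p6, the 250 bases before the gene start were searched on both strands for the ISRE core GAAANNGAAA and the GAS core TTCNNNGAA, which can overlap each other. An entry was available for 21 of the 27 type I led genes, of which 10 held the ISRE core, or 47.6%, and 2 the GAS core, or 9.52%. Of the 14 type II led genes 12 had an entry, and 7 of these held the ISRE core, or 58.3%, and 5 the GAS core, or 41.7%. Among all 27025 promoters of the same length the ISRE core was found in 3.46% and the GAS core in 8.13%. The ISRE core was found in *Bst2*, *Ifit1*, *Ifit3*, *Ifit3b*, *Isg15*, *Oas3*, *Rsad2*, *Slfn5*, *Stat2* and *Trim30a* and in *Cxcl10*, *Gbp2*, *Gbp3*, *Gbp5*, *Gbp7*, *Igtp* and *Irgm1*. The GAS core was found in *Bst2* and *Ifit2* and in *Gbp5*, *Gbp7*, *Igtp*, *Irf1* and *Psmb8*. *Cxcl9* held neither core in this window. There was no entry for *Mx1*, *Zbp1*, *Oas2*, *Usp18*, *Ifi27l2a*, *Rtp4*, *Gbp4* and *Iigp1*. A match describes the letters and is not a measured binding site. The windows of 8 genes whose levels are described below are printed 5′ to 3′ along the strand of the gene, with the core in capitals (a core on the opposite strand reads TTTCNNTTTC).
Rsad2, ISRE core, chr12:26456548-26456587, minus strand: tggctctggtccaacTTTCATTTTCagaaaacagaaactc
Isg15, ISRE core, chr4:156200866-156200905, minus strand: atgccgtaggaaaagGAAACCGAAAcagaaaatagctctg
Ifit1, ISRE core, chr19:34640789-34640828, plus strand: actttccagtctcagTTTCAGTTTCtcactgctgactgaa
Cxcl10, ISRE core, chr5:92349078-92349117, minus strand: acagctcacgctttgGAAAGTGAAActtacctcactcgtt
Gbp2, ISRE core, chr3:142620589-142620628, plus strand: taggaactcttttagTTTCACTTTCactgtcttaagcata
Igtp, ISRE core, chr11:58199507-58199546, plus strand: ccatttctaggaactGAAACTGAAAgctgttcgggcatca
Irf1, GAS core, chr11:53769909-53769947, plus strand: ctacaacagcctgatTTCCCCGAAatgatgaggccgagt
Gbp5, GAS core, chr3:142496867-142496905, plus strand: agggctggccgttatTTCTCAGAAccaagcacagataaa
The windows of *Ifit3* and *Ifit3b*, neighbouring copies of one another on chromosome 19, were identical, and their transcripts share sequence too, so the split of UMIs between these genes is uncertain. The same may hold for the related members of the *Gbp*, *Slfn* and immunity-related GTPase families, whose shared sequence was not examined. The copies sit together: 4 of the type I led genes, all *Ifit* genes, lay on chromosome 19, and 4 type II led *Gbp* genes lay on chromosome 3.

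Summed over all kept cells, the type I led genes were highest on Day 3 and the type II led genes on Day 14. The 26 counted type I led genes summed to 2604 CPM (95% Poisson interval 2587 to 2621) on Day 3, and to 1277 (1270 to 1284) and 1007 (1001 to 1014) on Days 7 and 14. The 14 type II led genes summed to 677, 565 and 1013 CPM, the last with an interval of 1006 to 1019. Of the type I led genes 25 had their highest level over all cells on Day 3, while the type II led genes split into 7 with their highest level on Day 3 and 7 on Day 14. The day of highest level was not counted for all genes, so these counts have no background. The mix of classes also changed between the libraries, with macrophage-like cells 62.0% of Day 3 cells and fibroblast-like cells 58.2% of Day 14 cells, so each class was taken by itself.

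**Figure D1:**
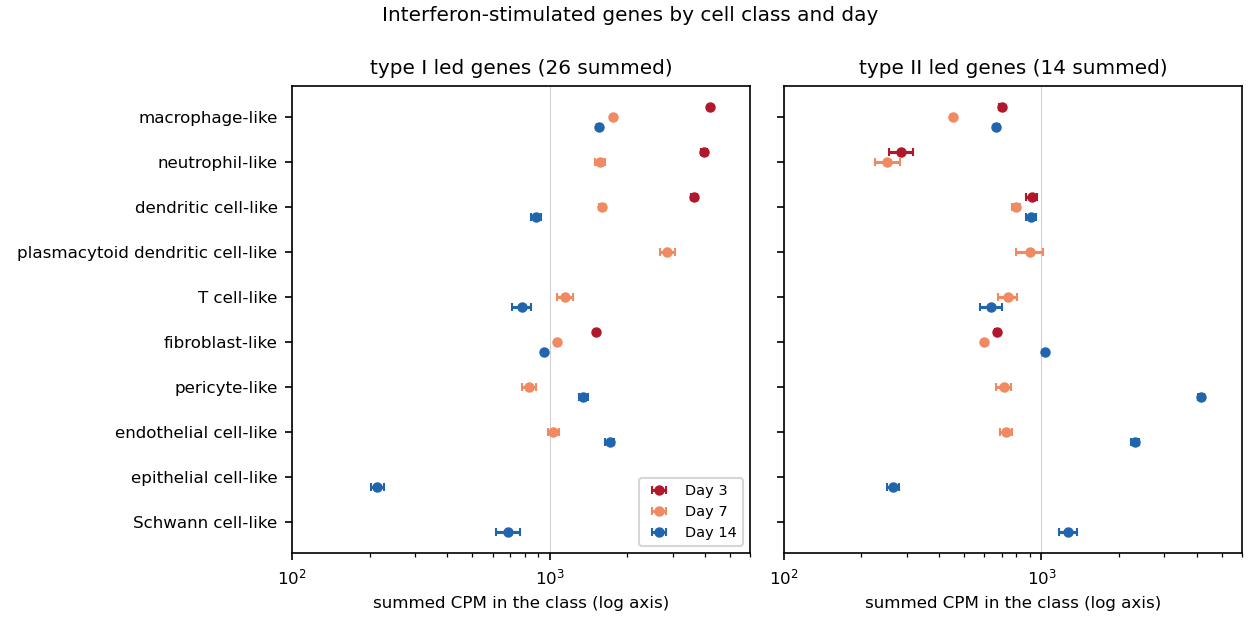
Summed CPM of the type I led genes (left, 26 genes) and the type II led genes (right, 14 genes) by cell class and day, on log axes, for classes with at least 50 cells; points are the libraries and bars the 95% Poisson intervals. Type I led sums were highest in macrophage-like, neutrophil-like and dendritic cell-like cells of Day 3 (3625 to 4191 CPM), and the highest type II led sum was in pericyte-like cells of Day 14 (4162 CPM).

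In macrophage-like cells nearly the whole type I led list was lower on Day 7 than on Day 3. Its sum was 4191 CPM (4155 to 4228) on Day 3, against 1756 (1740 to 1772) and 1547 (1525 to 1569) on the later days. All 26 genes had at least 10 UMIs in each library and all 26 were lower on Day 7, 22 of them by 2-fold or more, where 5.24% of the 11166 genes tested were 2-fold or more lower. None was 2-fold or more higher, where 6.13% of all genes were. The median log2 ratio of the list was -1.68, beside -0.045 for all genes.

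Antiviral enzymes were among the genes with high levels on Day 3. *Rsad2*, which encodes viperin, an enzyme that makes a chain-terminating nucleotide, stood at 395, 72.3 and 28.7 CPM in the order of the days, a log2 ratio of -2.45 (-2.53 to -2.37) from Day 3 to Day 7. Its neighbour *Cmpk2*, a nucleotide kinase, had 54.3, 10.9 and 5.93 CPM. The 3 levels of either gene did not overlap in their intervals, and each later day was lower.

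The oligoadenylate synthetase family senses double-stranded RNA and activates an RNA-degrading nuclease, and its members followed the same order of days from Day 3 to Day 7. *Oasl2* had 260, 73.9 and 40.0 CPM, and *Oas3* had 79.0, 18.1 and 12.6. *Oas2* had 42.9, 19.3 and 13.1 CPM. *Oasl1*, a relative that restrains *Irf7* translation, had 52.9, 15.4 and 18.2 CPM, and so did not go lower again on Day 14.

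The *Ifit* genes encode proteins that bind foreign RNA. *Ifit1* had 64.9, 15.1 and 4.01 CPM, a log2 ratio of -2.11 (-2.28 to -1.93) and then of -1.91 (-2.37 to -1.49). *Ifit2* had 89.0, 24.4 and 8.82 CPM and *Ifit3b* 16.5, 4.36 and 2.49. *Ifit3* differed less, with 33.1, 19.4 and 12.8 CPM and a log2 ratio of -0.77 from Day 3 to Day 7.

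*Isg15*, a ubiquitin-like protein that is attached to other proteins, and *Usp18*, which removes it and dampens the receptor, also had their highest level on Day 3. *Isg15* had 158, 34.8 and 47.7 CPM and *Usp18* 67.4, 17.6 and 7.53. After Day 7 they went opposite ways, with log2 ratios of 0.46 (0.31 to 0.61) and -1.23 (-1.56 to -0.90).

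Among the regulators, *Irf7*, the factor that amplifies interferon alpha production, had 166, 65.6 and 36.2 CPM. *Stat2* had 113, 47.1 and 32.9 CPM, and *Irf9*, its partner, 91.3, 57.0 and 36.5. *Irf9* was 1 of the 4 genes whose ratio to Day 3 stayed within 2-fold, with *Ifih1*, *Ifit3* and *Ifi27l2a*. *Ifih1*, which encodes the RNA sensor MDA5, had 63.1, 46.7 and 36.2 CPM.

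The genes for other effectors differed in how far they went. *Slfn4*, a Schlafen gene of myeloid cells, had 162, 22.5 and 4.73 CPM, with the lowest log2 ratio of the list, -2.85 (-2.98 to -2.72), and *Slfn5* had 431, 204 and 131 CPM. *Trim30a* had 427, 136 and 84.2 CPM, and *Bst2*, the tetherin that holds budding virus at the membrane, 382, 132 and 203. *Zbp1*, a sensor of Z-form nucleic acid, had 74.2, 30.9 and 32.9 CPM. *Rtp4* had 96.8, 29.4 and 18.3 CPM, *Xaf1* 57.7, 22.8 and 18.6, *Ifi35* 50.4, 21.6 and 21.8, and *Ifi44* 17.8, 4.99 and 4.25. *Ifi27l2a* was the most abundant member and hardly took part, with 746, 610 and 684 CPM and a log2 ratio of -0.29. It made up 17.8% of the type I led sum on Day 3 and 44.2% on Day 14, and without it and the other 3 most abundant genes (*Slfn5*, *Bst2* and *Trim30a*) the sum was 2206, 674 and 444 CPM.

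**Figure D2:**
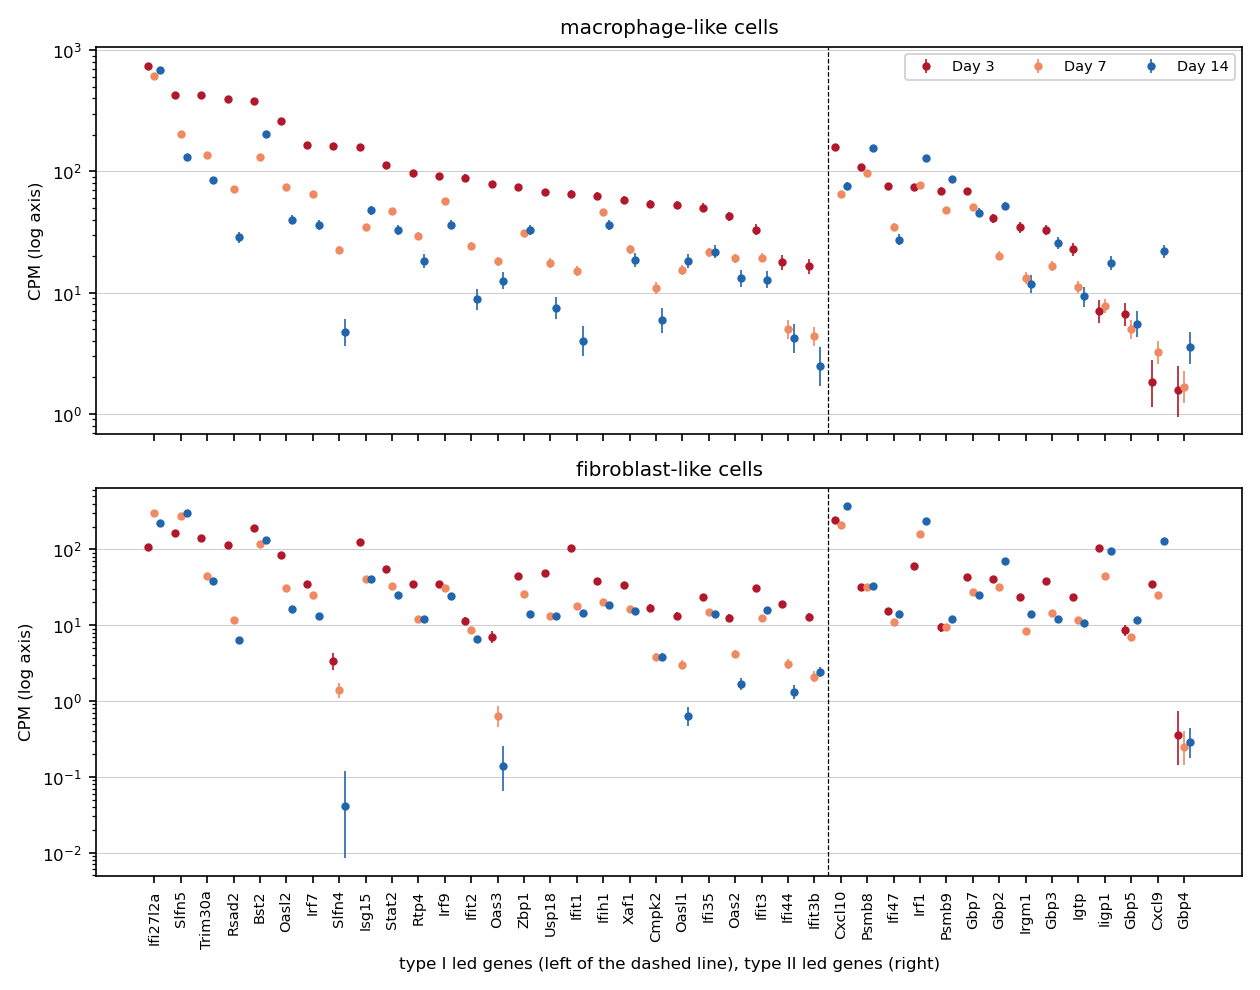
CPM of each of the 40 counted genes in macrophage-like (top) and fibroblast-like cells (bottom) on Days 3, 7 and 14, on log axes, with 95% Poisson intervals; type I led genes stand left of the dashed line in order of their Day 3 level in macrophage-like cells. In macrophage-like cells all 26 type I led genes have their highest point on Day 3, while *Cxcl9*, *Iigp1* and *Gbp2* have theirs on Day 14.

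The macrophage-like clusters were not the same on the 2 days, and the difference was not of one size within them. Cluster 1, led by *Cxcr4*, *Chil3* and *Arg1*, held 2259 of the 2702 macrophage-like cells of Day 3 and 150 of 9553 on Day 7, while cluster 0, led by *Mmp12*, *Cd36* and *Trem2*, held 141 and 4067. Within cluster 1 the type I led sum was 4409 CPM on Day 3 and 1988 on Day 7, a log2 ratio of -1.15 (-1.24 to -1.06), with 16 of 23 genes 2-fold or more lower, where 4.05% of all genes were. Within cluster 0 it was 1625 and 1294 CPM, a log2 ratio of -0.33 (-0.42 to -0.24), with 3 of 19 genes lower by that much, where 7.26% of all genes were. Cluster 11, of low depth, had a log2 ratio of -1.84, and there 30.6% of all genes were 2-fold or more lower. In cluster 7, led by *Ly6c2* and *Ms4a4c*, the sums were 3031 CPM in only 63 cells of Day 3 and 3085 CPM in 1472 cells of Day 7. The cells of Day 3 in cluster 0 and those of Day 7 in cluster 7 thus do not follow the class as a whole, and the part of the cluster make-up in the class ratio was not separated from the rest.

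Fibroblast-like cells showed the same order of days for most type I led genes and for their sum, from lower levels. Of 26 genes 16 were 2-fold or more lower on Day 7 than on Day 3, where 10.9% of the 12943 genes tested were, and 1 was 2-fold or more higher, where 7.32% were. The median log2 ratio was -1.36, beside -0.16 for all genes. The sum was 1515, 1070 and 952 CPM on the 3 days, and without the 4 most abundant genes it was 905, 333 and 260.

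*Rsad2* in fibroblast-like cells had 114, 11.9 and 6.32 CPM, a log2 ratio of -3.27 (-3.39 to -3.15) from Day 3 to Day 7. *Ifit1* had 106, 17.8 and 14.5 CPM and *Isg15* 125, 40.6 and 40.3. The level of *Ifit1* on Day 3 was above its level in macrophage-like cells of the same library, and that of *Rsad2* was below it. *Oas3* had 7.02, 0.637 and 0.137 CPM, from 138, 41 and 10 UMIs.

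Members higher on Day 7 than on Day 3 were *Ifi27l2a*, at 108, 302 and 223 CPM, a log2 ratio of 1.49 (1.42 to 1.55) from Day 3 to Day 7, and *Slfn5*, at 166, 272 and 298. *Ifi27l2a* encodes a small membrane protein, and it alone made up 28.3% of the type I led sum on Day 7. The sum of all 26 genes was therefore closer between these days than most of its members were. Summed macrophage markers in fibroblast-like cells were 73.5, 228 and 92.0 CPM on the 3 days, against 7524 to 15970 CPM in macrophage-like cells.

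The fibroblast-like clusters also turned over. Cluster 25, led by *Saa3* and *Cxcl5*, held 208 cells of Day 3 and had a type I led sum of 1680 CPM, and it had too few cells on Day 7 for a level. The cycling cluster 21 was present on both days, with 154 and 428 cells, and there the sum was 1338 CPM on Day 3 and 643 on Day 7, a log2 ratio of -1.06 (-1.11 to -1.01). In that cluster 16 of 23 genes were 2-fold or more lower, beside 5.11% of all genes. Cluster 14, with a low depth, had 3 genes with enough UMIs and a log2 ratio of 0.14 (-0.19 to 0.49). The median log2 ratio of all genes in that cluster was -1.09. Of the 3 genes 1 was 2-fold or more higher, where 3.54% of all genes were, and none was lower, where 54.2% were.

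Neutrophil-like cells held the highest levels of several type I led genes. Their sum was 3959 CPM on Day 3 and 1566 on Day 7, and 14 of 24 genes were 2-fold or more lower, where 7.57% of the 4955 genes tested were. None was 2-fold or more higher, where 9% were. *Slfn4* alone had 1243 CPM on Day 3 and 525 on Day 7. *Rsad2* had 641 and 118 CPM, *Oasl2* 324 and 91.5, *Isg15* 276 and 109, *Rtp4* 111 and 25.8, and *Ifit1* 133 and 7.82, the last a log2 ratio of -4.09 (-5.18 to -3.17). *Bst2* was low in these cells, at 17.7 and 25.03 CPM. Cluster 16 held 791 of the neutrophil-like cells of Day 3 and cluster 8 held 1556 of those of Day 7, so the clusters differ between the days here too. Within cluster 16 the sums were 4052 CPM and, in 81 cells, 1874 CPM, and within cluster 8 they were closer, at 2416 CPM in 82 cells and 1537 CPM. Type II led genes were scarce in neutrophil-like cells, with sums of 286 and 253 CPM. Of 6 of them with enough UMIs *Gbp2* was 2-fold or more lower, at 48.0 and 18.0 CPM.

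Dendritic cell-like cells went lower in 2 steps. The type I led sum was 3625 CPM at first, then 1593 and 884. From Day 3 to Day 7, 19 of 25 genes were 2-fold or more lower, where 8.83% of 7991 genes were, and none was higher by that much, where 2.55% were. From Day 7 to Day 14, 14 of 20 were 2-fold or more lower, where 8.62% of 8303 genes were, and again none was higher, where 3.11% were. *Rsad2* had 284, 44.0 and 21.7 CPM and *Oasl2* 192, 53.8 and 8.60, so that *Oasl2* ended below its level in fibroblast-like cells of Day 14. *Slfn5* had 526, 228 and 67.9 CPM, *Trim30a* 421, 126 and 62.5, and *Irf7* 130, 56.2 and 14.5. The order of days held within cluster 13, led by *Cd209a*, with sums of 4055, 1775 and 933 CPM in 182, 747 and 381 cells. In cluster 24, led by *Ccl22* and *Ccr7*, the sums started lower and differed less, at 1347, 1081 and 619 CPM in 57, 315 and 90 cells.

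Plasmacytoid dendritic cells, the professional producers of interferon alpha, were represented by 111 cells on Day 7, and by 4 and 34 on the other days. Their type I led sum of 2856 CPM (2669 to 3052) on Day 7 was above that of macrophage-like cells in the same library. It came in large part from *Bst2*, a surface marker of these cells, at 1364 CPM, *Ifi27l2a* at 501, *Trim30a* at 320 and *Stat2* at 198. *Rsad2* and *Ifit1* were each counted once in these cells, below the 3 UMIs (9.88 CPM) taken as the least that gives a level. *Rsad2* and *Ifit1* were thus not the source of this sum. Without *Ifi27l2a*, *Slfn5*, *Bst2* and *Trim30a* the sum was 570 CPM (488 to 661).

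T cell-like cells, with 379 cells on Day 7 and 312 on Day 14, had type I led sums of 1143 and 778 CPM, of which *Ifi27l2a* made up 45.6% and 36.4%. Of 10 type I led genes with enough UMIs, *Bst2* was 2-fold or more higher on Day 14, at 42.9 and 134 CPM, where 5.6% of 5913 genes were, and *Slfn5* was 2-fold or more lower, at 81.4 and 30.5 CPM, where 4.5% were. Of 10 type II led genes *Gbp7* and *Gbp3* were lower by that much. *Gbp7*, a guanylate-binding GTPase, had its highest level of any class in these cells on Day 7, at 126 CPM, as did *Igtp* at 58.6 and *Gbp4* at 41.4, the last with an interval that overlaps that of endothelial cell-like cells.

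From Day 7 to Day 14 fewer type I led genes differed by 2-fold in the 2 largest classes. In macrophage-like cells 5 of 26 were 2-fold or more lower (*Slfn4*, *Ifit1*, *Ifit2*, *Rsad2* and *Usp18*), where 4.6% of 12018 genes were, and none was higher, where 5.12% were. In fibroblast-like cells 4 of 25 were 2-fold or more lower (*Oasl1*, *Oas3*, *Oas2* and *Ifi44*), where 8.12% of 14713 genes were, and none was higher, where 6.22% were. *Oasl1* in those cells had 13.3, 3.01 and 0.631 CPM on the 3 days, *Oas2* 12.5, 4.16 and 1.70, and *Ifi44* 18.9, 3.09 and 1.32. *Slfn4* had 3 UMIs in fibroblast-like cells of Day 14, 0.041 CPM, and was not among the 25. Their sums had log2 ratios of -0.18 (-0.21 to -0.16) in macrophage-like and -0.17 (-0.18 to -0.15) in fibroblast-like cells. Under several of the processing alternatives given at the end these ratios moved past their intervals, and neither turned direction.

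The type II led genes took another course. In macrophage-like cells their sum was 702, 452 and 669 CPM. From Day 3 to Day 7, 5 of 14 were 2-fold or more lower, namely *Irgm1*, *Cxcl10*, *Ifi47*, *Igtp* and *Gbp2*, and none was higher, where 5.24% and 6.13% of all genes were. From Day 7 to Day 14, 4 of 14 were 2-fold or more higher and none lower, where 5.12% and 4.6% of all genes were, beside a median log2 ratio of 0.66 for the list and -0.096 for all genes. These 4 were *Cxcl9*, *Gbp2*, *Iigp1* and *Gbp4*. Within single macrophage-like clusters the type II led sum went both ways from Day 3 to Day 7. Cluster 1 had a log2 ratio of -0.52 (-0.705 to -0.342), with none of 7 genes past 2-fold and a median of -0.075 for all genes. That of cluster 11 was -0.679 (-1.02 to -0.321), near the median of -0.662 for all genes in that cluster. There 2 of 4 genes were 2-fold or more lower, where 30.6% of all genes were. Cluster 0 went the other way, at 0.39 (0.164 to 0.624), with none of 5 genes past 2-fold. Cluster 7 had 663 CPM on Day 7, above the 366 CPM of only 63 cells on Day 3. The part of the cluster make-up in the class ratio was not tested.

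*Cxcl9*, the chemokine that draws T cells through CXCR3 and is the member most bound to interferon gamma, had 1.83, 3.24 and 22.0 CPM in macrophage-like cells, a log2 ratio of 2.76 (2.41 to 3.13) from Day 7 to Day 14. *Cxcl10*, which uses the same receptor, did not follow it and had 158, 64.6 and 76.1 CPM. *Gbp2*, a GTPase that attacks the vacuoles of microbes, had 41.02, 20.2 and 52.1 CPM, and *Iigp1*, an immunity-related GTPase with the same target, 7.06, 7.75 and 17.6. *Gbp4* stayed low at 1.58, 1.68 and 3.53 CPM. The transcription factor *Irf1* had 73.7, 77.2 and 128 CPM, and the immunoproteasome subunits *Psmb8* and *Psmb9*, which cut peptides for presentation, 108, 98.0 and 157 and 69.6, 47.8 and 86.3.

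The other GTPases of macrophage-like cells were within 2-fold between Day 7 and Day 14. *Ifi47* had 75.5, 35.1 and 27.4 CPM, *Irgm1*, a regulator of this family, 34.5, 13.2 and 11.8, and *Igtp* 22.8, 11.1 and 9.30. *Gbp7* had 68.8, 51.0 and 45.6 CPM, *Gbp3* 33.0, 16.6 and 25.8, and *Gbp5* 6.64, 4.99 and 5.53. Type II led members of macrophage-like cells thus split into 7 highest on Day 3 and 7 on Day 14, without a count for all genes beside them.

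In fibroblast-like cells the type II led sum was 675, 597 and 1029 CPM. Its direction from Day 3 to Day 7 is not held, since the log2 ratio of -0.18 became 0.054 without the 50 most abundant genes and 0.040 as mean CPM per cell. From Day 3 to Day 7, 3 of 13 genes were 2-fold or more lower (*Irgm1*, *Gbp3* and *Iigp1*) and 1, *Irf1*, was higher, where 10.9% and 7.32% of all genes were, and the median log2 ratio was -0.46. From Day 7 to Day 14, 3 of 14 were 2-fold or more higher and none lower, where 6.22% and 8.12% of all genes were, with a median of 0.45. As mean CPM per cell 1 gene in place of 3 was past 2-fold. *Cxcl9* had 35.0, 25.1 and 130 CPM, a log2 ratio of 2.38 (2.31 to 2.46) over the last step, *Gbp2* 40.8, 31.8 and 69.5, and *Iigp1* 103, 45.2 and 94.1. Only *Cxcl9* and *Gbp2* of these 3 ended above their Day 3 level, by intervals that do not overlap.

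*Cxcl10* was the most abundant type II led gene of fibroblast-like cells, at 241, 212 and 369 CPM, and *Irf1* had 61.1, 160 and 234. The level of *Cxcl9* was above that of macrophage-like cells on all 3 days. Among the rest, *Gbp7* had 43.9, 27.8 and 24.9 CPM, *Gbp3* 37.9, 14.3 and 11.9, *Igtp* 23.4, 11.9 and 10.6, *Irgm1* 23.4, 8.34 and 14.2, *Ifi47* 15.2, 11.03 and 14.2, *Gbp5* 8.55, 7.01 and 11.7, *Psmb8* 31.9, 31.8 and 32.5, and *Psmb9* 9.36, 9.60 and 12.1. *Gbp4* was under 0.4 CPM throughout.

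The higher type II led sum on Day 14 was found in every cluster of the 2 classes with at least 100 cells on each day. Many fibroblast-like cells lay outside these clusters, since cluster 6 held 2095 cells of Day 7 and 34 of Day 14, while clusters 5, 12 and 17 held 2148, 1334 and 721 cells of Day 14 and 96, 31 and 62 of Day 7. The Day 14 sums of clusters 12 and 17, 401 and 451 CPM, were below the 597 CPM of the whole class on Day 7. The log2 ratios of Day 14 to Day 7 within clusters ran from 0.23 to 0.79 over 7 macrophage-like clusters and from 0.57 to 1.23 over 5 fibroblast-like clusters. The lowest, in cluster 18, led by *Retnla* and *Lyz1*, was 0.23 (0.099 to 0.36), and the highest, in cluster 10, led by *Cxcl13*, *Smpd3* and *C3*, was 1.23 (1.18 to 1.28). Cluster 10 had 6 of 13 genes 2-fold or more higher, beside 2.31% of all genes. The higher sum was not shared by most members in every cluster. In cluster 9, 1 of 13 genes was 2-fold or more higher and 2 were lower, where 2.22% and 3.41% of all genes were, with a median log2 ratio of -0.15. In cluster 3, 1 of 13 was higher and none lower, where 2.98% and 4.36% were, with a median of -0.020. *Cxcl9* on Day 14 differed widely between fibroblast-like clusters, with 293 CPM in cluster 10, 186 in cluster 5, 117 in cluster 9, 90.05 in cluster 3, 40.6 in cluster 14 and 16.9 in cluster 15, and with 6.48 in cluster 12 and 5.62 in cluster 17. Type I led sums in these clusters had log2 ratios from -0.40 to 0.40 on the same step, without 1 direction.

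**Figure D3:**
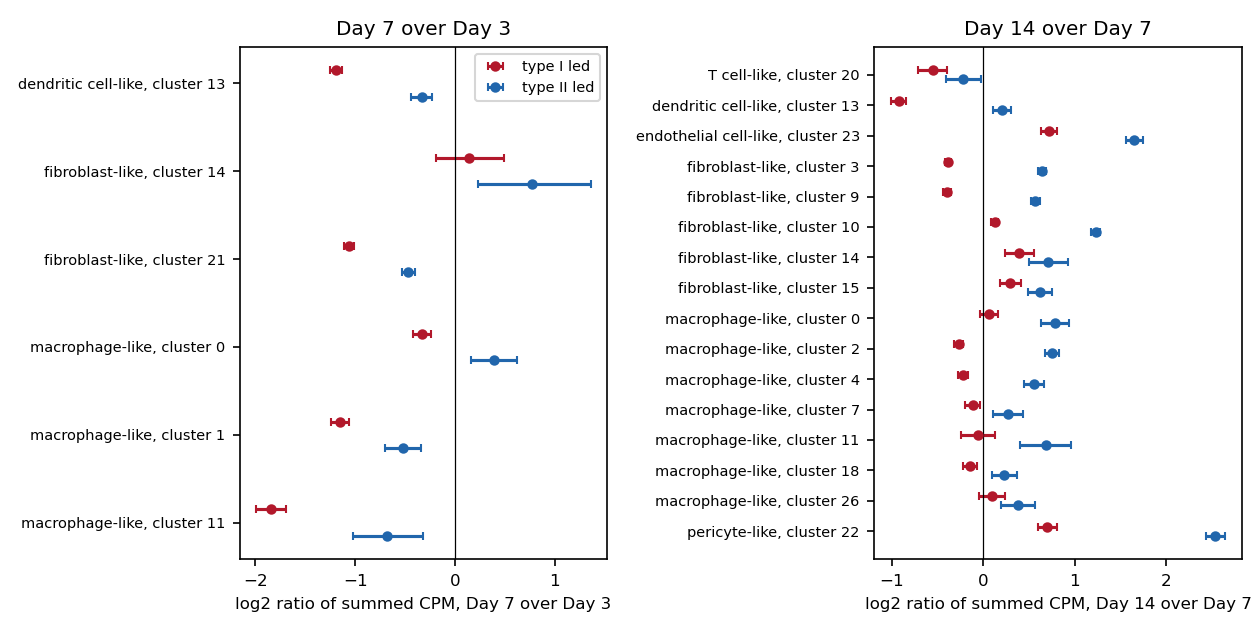
Log2 ratio of summed CPM within single clusters, Day 7 over Day 3 (left) and Day 14 over Day 7 (right), for the type I led (red) and type II led genes (blue), for clusters with at least 100 cells on both days; bars are 95% intervals from counting. On the right every type II led point of the macrophage-like, fibroblast-like, pericyte-like and endothelial cell-like clusters lies above 0, up to 2.54 in the pericyte-like cluster, and that of the T cell-like cluster lies below.

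Pericyte-like cells, which wrap and contract capillaries, had the largest difference of any class. They numbered 186 on Day 7 and 430 on Day 14, and their type II led sum was 714 CPM (667 to 763) and 4162 CPM (4067 to 4259), a log2 ratio of 2.54 (2.44 to 2.65). Of 13 genes with enough UMIs 10 were 2-fold or more higher, where 5.89% of 8218 genes were, and none was lower, where 11.7% were. The list median was 2.22, beside -0.21 for all genes.

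*Cxcl10* had 82.8 CPM on Day 7 and 1467 on Day 14 in these cells, a log2 ratio of 4.15 (3.86 to 4.45), and it made up 35.3% of the sum on Day 14. *Iigp1* had 129 and 995 CPM, with a ratio of 2.95 (2.71 to 3.19), and *Irf1* 222 and 669. *Cxcl9* had 15.7 and 190 CPM, a ratio of 3.60 (2.93 to 4.35). In the same Day 14 library *Cxcl10* stood at 369 CPM in fibroblast-like, 49.6 in epithelial cell-like and 16.7 in dendritic cell-like cells.

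Most GTPases differed in the same direction in pericyte-like cells, with *Ifi47* at 38.1 and 248 CPM, *Gbp2* at 40.6 and 189, *Gbp5* at 14.1 and 87.1, *Irgm1* at 16.6 and 50.2, *Gbp3* at 22.4 and 49.1 and *Igtp* at 8.28 and 46.2. *Psmb8* had 39.7 and 68.7 CPM, *Psmb9* 13.2 and 26.0 and *Gbp7* 70.4 and 73.3, all within 2-fold. Without *Cxcl10* and *Irf1* the sums were 409 and 2025 CPM.

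The type I led genes of pericyte-like cells had no shared direction, while their sum was 830 and 1350 CPM, a log2 ratio of 0.70 (0.59 to 0.81). Of 18 with enough UMIs 2 were 2-fold or more higher, *Isg15* and *Rsad2*, and 2 lower, *Ifi27l2a* and *Ifit2*, where 5.89% and 11.7% of all genes were, so the count of lower genes was at the share of all genes, and the median log2 ratio was 0.19. *Isg15* had 75.3 and 404 CPM, a ratio of 2.42 (2.11 to 2.75), while *Rsad2* rested on 10 and 39 UMIs, at 8.28 and 22.5 CPM. *Ifi27l2a* had 77.8 and 29.4 CPM, a ratio of -1.40 (-1.92 to -0.90).

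Endothelial cell-like cells, 237 on Day 7 and 235 on Day 14, differed in the same direction. The type II led sum was 731 CPM (693 to 772) and 2303 (2224 to 2384), a log2 ratio of 1.66 (1.56 to 1.75), and 9 of 14 genes were 2-fold or more higher, where 4.71% of 8365 genes were, with none lower, where 6.63% were. *Iigp1* led them at 197 and 987 CPM and made up 42.9% of the Day 14 sum. *Gbp4*, which was nearly absent from pericyte-like and fibroblast-like cells, had 21.8 and 112 CPM, a log2 ratio of 2.35 (1.84 to 2.89). *Cxcl10* had 66.5 and 264 CPM and *Cxcl9* 7.09 and 49.2, both below the levels in pericyte-like cells of Day 14, and *Irf1* had 164 and 344.

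In the type I led list of endothelial cell-like cells 5 of 21 were 2-fold or more higher on Day 14, where 4.71% of all genes were, namely *Isg15*, *Ifit1*, *Ifit2*, *Rtp4* and *Slfn5*, and none was lower, where 6.63% were. *Isg15* had 37.6 and 137 CPM, *Slfn5* 261 and 534, and *Ifit1* 10.9 and 28.9 from 20 and 40 UMIs. *Ifi44* was highest of all classes here on Days 7 and 14, at 72.0 and 60.1 CPM, but its Day 7 interval overlaps that of plasmacytoid dendritic cell-like cells. The type I led sum was 1033 and 1705 CPM, a log2 ratio of 0.72 (0.64 to 0.81).

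Several other quantities differed in the vessel-associated cells between the days, and their part in these differences was not tested. The summed CPM of 7 immediate early genes, which enzymatic dissociation is known to raise, was 6712 on Day 7 and 10890 on Day 14 in pericyte-like cells, 4136 and 8248 in endothelial cell-like cells, and 7114 and 9117 in fibroblast-like cells. Summed macrophage markers went from 435 to 135 CPM in pericyte-like and from 486 to 287 CPM in endothelial cell-like cells, none of the 8 markers at 0. Summed T cell markers were 8.28 and 16.7 CPM in pericyte-like cells, where 5 and then 2 of 8 markers were at 0. The pericyte markers themselves summed to 9429 and 9747 CPM in pericyte-like cells. The median depth was 5621 and 3928 UMIs in these cells.

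**Figure D4:**
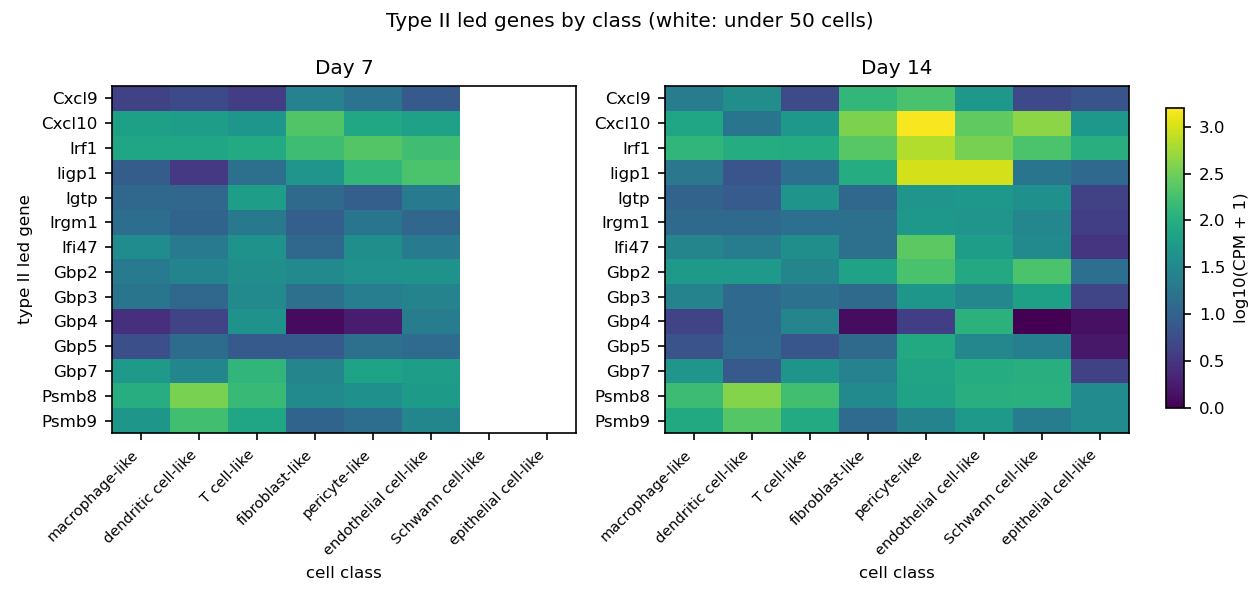
Level of each type II led gene by class on Day 7 (left) and Day 14 (right), coloured by log10(CPM + 1), with classes under 50 cells left white. On Day 14 the brightest cells are *Cxcl10* in pericyte-like cells (1467 CPM) and *Iigp1* in pericyte-like and endothelial cell-like cells (995 and 987 CPM), while *Psmb8* is brightest in dendritic cell-like cells (400 CPM).

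Across classes on Day 14 the type II led genes were most often highest in pericyte-like cells, with 7 of 14, followed by 3 in Schwann cell-like cells and 2 each in endothelial cell-like and dendritic cell-like cells. All genes were not counted by their highest class, so these numbers have no background. The interval lay apart from that of the next class for 5 of the 7 pericyte-like genes, not for *Iigp1* and *Irgm1*, and for none of the 3 Schwann cell-like genes (*Gbp2*, *Gbp3* and *Gbp7*). It also lay apart for *Gbp4* but not *Igtp* in endothelial cell-like cells, and for both dendritic cell-like genes. Schwann cell-like cells, 109 on Day 14, had a type II led sum of 1265 CPM (1166 to 1370), with *Cxcl10* at 436, *Gbp2* at 197, *Irf1* at 193 and *Gbp7* at 102. Epithelial cell-like cells, 720 on Day 14, had the lowest sums, 265 CPM for the type II led and 214 for the type I led genes, and *Irf1* at 100.4 CPM was 37.9% of the former. Dendritic cell-like cells kept the immunoproteasome, with *Psmb8* at 240, 362 and 400 CPM and *Psmb9* at 143, 169 and 225 on the 3 days.

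In dendritic cell-like cells the 2 chemokines parted. *Cxcl10* had 207, 61.0 and 16.7 CPM, a log2 ratio of -1.86 (-2.41 to -1.35) over the last step. *Cxcl9* had 2 UMIs on Day 3, below the least that gives a level (1.81 CPM), and then 4.16 and 36.7 CPM, a ratio of 3.14 (2.31 to 4.07). Of their 12 type II led genes with enough UMIs 5 were 2-fold or more lower from Day 3 to Day 7, where 8.83% of all genes were. From Day 7 to Day 14, 2 of 13 were higher by that much, *Cxcl9* and *Gbp4*, and 2 lower, *Cxcl10* and *Gbp7*, where 3.11% and 8.62% of all genes were. *Iigp1* had under 10 UMIs on Day 7 and was not among the 13.

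Cells of the same class differed in how many of these transcripts they held. For this every cell was thinned to 500 UMIs at random, so that depth was equal. Of macrophage-like cells 30.5% (28.8 to 32.3, Clopper-Pearson) held 3 or more type I led UMIs on Day 3, against 9.47% and 7.30% on the later days. The share with any such UMI was 72.0%, 48.6% and 46.1%. Without thinning, at median depths of 4032, 2527 and 3518 UMIs, 84.0%, 54.7% and 62.0% held 3 or more. The variance of the thinned count over its mean, which is 1 for counts that scatter at random, was 2.89, 2.12 and 1.70. In neutrophil-like cells the share with 3 or more was 23.0% and 6.90% (41.2% and 13.6% without thinning) and the variance over the mean 7.05 and 2.47, and on Day 3 the 5% of cells with most UMIs held 37.3% of them, with up to 30 of 500 UMIs in a cell.

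Dendritic cell-like cells had 18.4%, 7.25% and 3.397% of cells with 3 or more type I led UMIs, and fibroblast-like cells 5.74%, 3.72% and 2.71%. Without thinning these shares were 85.4%, 54.6% and 49.9%, and 75.2%, 79.9% and 67.7%, so the order of Days 3 and 7 in fibroblast-like cells turned. Endothelial cell-like cells went from 4.22% on Day 7 to 11.1% on Day 14, but without thinning from 72.2% to 67.2%, at median depths of 6110 and 3847 UMIs. For the type II led genes the share in pericyte-like cells was 3.23% on Day 7 and 27.0% (22.8 to 31.4) on Day 14, with a variance over the mean of 3.56, and 34.4% of pericyte-like cells of Day 14 held none. Without thinning the shares of pericyte-like cells with 3 or more were 53.2% and 77.7%, and in thinned epithelial cell-like cells of the Day 14 library, at a median depth of 5726 UMIs before thinning, the share was 0.278%. In fibroblast-like cells it was 1.98%, 1.63% and 3.95%, and in macrophage-like cells 2.18%, 0.618% and 1.44%. Without thinning these were 65.7%, 60.5% and 60.7%, and 32.9%, 14.4% and 33.6%.

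**Figure D5:**
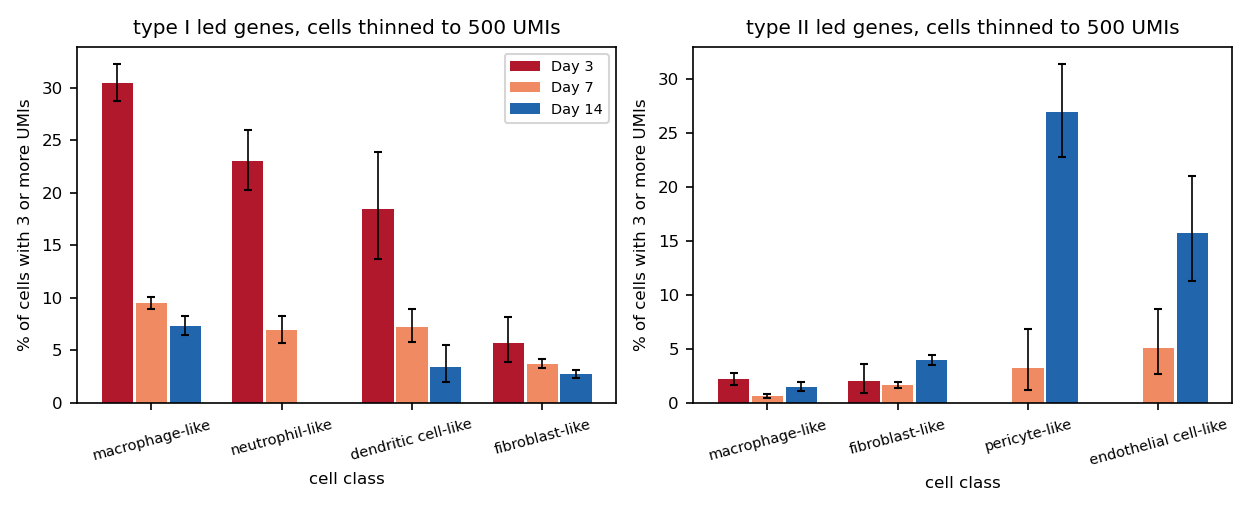
Share of cells, in percent, with 3 or more type I led UMIs (left) and type II led UMIs (right) by class and day after each cell was thinned to 500 UMIs; bars start at 0 and error bars are 95% Clopper-Pearson intervals. The type I led bars are tallest on Day 3 (30.5% of macrophage-like cells), and the tallest type II led bar is that of pericyte-like cells on Day 14 (27.0%).

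Some pairs of transcripts were compared within cells, and pairs of genes outside the lists were not, so these shares have no background. Cells with at least 1000 UMIs were thinned to 1000, and cells with fewer were left out. This kept 2481 of 2702 macrophage-like and 615 of 873 neutrophil-like cells of Day 3. Pairs of genes from 1 list were compared in 26 cases of class and day. In 17 of them the share of cells with the second gene was higher among cells with the first, by intervals that did not overlap. The same held for 4 of 6 cases of *Isg15* with *Cxcl10*, a pair across the lists. For example, 29.4% (25.2 to 33.8) of macrophage-like cells of Day 3 with *Rsad2* also held *Isg15*, against 9.19% (7.97 to 10.5) of those without. In neutrophil-like cells of Day 3 these shares were 46.1% and 11.4%. In fibroblast-like cells of Day 14, 19.6% of those with *Cxcl10* held *Cxcl9*, against 3.22% of those without, and in pericyte-like cells of Day 14, 50% of those with *Iigp1* held *Cxcl10*, against 18.2%. Pairs without such a difference included *Iigp1* with *Irf1* in fibroblast-like cells of Day 14, at 20.6% and 19.0%, and *Iigp1* with *Cxcl10* in macrophage-like cells of Day 7, at 1.79% and 3.57%. For *Isg15* with *Cxcl10* in macrophage-like cells of Day 3 the shares were 15.7% and 3.56%. Cells of a class come from several clusters, and that part of these shares was not separated.

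The rest of the pathway was read from a fixed list of 51 genes, of which 50 were matched in the count tables. The ligands on this list were almost unseen. Of the interferon alpha genes the list held only *Ifna2*, *Ifna4* and *Ifna5*, and others were not looked up. *Ifnb1* had 1, 6 and 10 UMIs over all kept cells of Days 3, 7 and 14, *Ifna2* 1 on Day 3 and *Ifnk* 1 on Day 14, and *Ifna4*, *Ifna5*, *Ifne*, *Ifnl2* and *Ifnl3* none. *Ifng*, the gene of interferon gamma, was found in T cell-like cells at 30 CPM on Day 7 and 42.6 on Day 14. These levels rested on 21 and 28 UMIs, a log2 ratio of 0.51 (-0.36 to 1.40). It stood at 1.15 CPM or below in every other class of at least 50 cells. Over all kept cells it had 3, 46 and 36 UMIs on the 3 days, and macrophage-like cells held 19 of the 46 on Day 7. Short-lived ligand transcripts can be missed at this depth, so these counts set no level of the proteins.

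*Ifnar1*, *Ifnar2*, *Ifngr1* and *Ifngr2* were counted in every class of at least 50 cells. *Ifnar1* and *Ifnar2* were highest in plasmacytoid dendritic cell-like cells of Day 7, at 343 and 428 CPM, and *Ifngr1* was highest in T cell-like cells of Day 14 at 708 CPM, followed by dendritic cell-like cells of Day 3 at 665. Pericyte-like cells had 60.4 and 57.1 CPM of *Ifngr1* and 93.5 and 90.6 of *Ifngr2* on Days 7 and 14. *Ifnlr1*, the receptor of the lambda interferons, was found in neutrophil-like cells at 13.5 and 6.26 CPM and in epithelial cell-like cells at 5.12, and had at most 3 UMIs in any other class of a library. *Cxcr3*, the receptor of *Cxcl9* and *Cxcl10*, was found in plasmacytoid dendritic cell-like cells of Day 7 at 59.3 CPM and in T cell-like cells at 21.4 and 30.4.

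Of the signalling genes, *Socs1* is the inhibitor that interferon gamma induces to shut off its own receptor. From Day 7 to Day 14 it went with the type II led sum in fibroblast-like, pericyte-like and endothelial cell-like cells. *Socs1* had 82.0, 34.2 and 102 CPM on the 3 days in fibroblast-like cells, and 24.8 and 132 on Days 7 and 14 in pericyte-like cells. In endothelial cell-like cells it had 7.09 and 31.9 CPM. T cell-like cells parted from this, with *Socs1* at 41.4 and 128 CPM, a log2 ratio of 1.63 (1.00 to 2.29). Their type II led sum was 740 CPM on Day 7 and 636 on Day 14. *Irf8* was highest in plasmacytoid dendritic cell-like cells, at 3376 CPM.

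The pathway genes were also counted as a list, with the share of all genes in parentheses, and several counts were near that share. From Day 3 to Day 7, 5 of 38 were 2-fold or more lower and 2 higher in macrophage-like cells (5.24% and 6.13% of all genes), and 6 of 36 lower and 1 higher in fibroblast-like cells (10.9% and 7.32%). From Day 7 to Day 14 these counts were 1 of 40 lower and 1 higher in macrophage-like cells (4.6% and 5.12%), 3 of 38 lower and 2 higher in fibroblast-like cells (8.12% and 6.22%), 2 of 29 lower and 5 higher in pericyte-like cells (11.7% and 5.89%), and none of 30 lower and 3 higher in endothelial cell-like cells (6.63% and 4.71%). In dendritic cell-like cells 4 of 37 were lower on the first step (8.83%), and 9 of 36 lower and 2 higher on the second (8.62% and 3.11%). In neutrophil-like cells 4 of 29 were lower (7.57%), and in T cell-like cells 6 of 34 were lower and 2 higher (4.5% and 5.6%).

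Other induced genes of that list followed either course. *Ifi204*, a sensor of DNA, had 517, 165 and 148 CPM in macrophage-like cells, and *Ifi209* 219, 84.3 and 44.3. The class I antigen-presenting genes *H2-K1* and *H2-D1* had 267 and 653 and 184 and 500 CPM in pericyte-like cells of Days 7 and 14. The other class I genes there were within 2-fold or, for *Nlrc5*, had too few UMIs. Their log2 ratios were 0.58 for *B2m*, -0.12 for *Tap1*, 0.42 for *Tap2*, 0.11 for *Tapbp* and 0.61 for *Psmb10*. *Ifitm3*, a membrane protein that blocks virus entry, had 1645 and 4285 CPM in endothelial cell-like cells. *Ccl5*, a chemokine of T cells, had 69.7, 2.66 and 2.56 CPM in fibroblast-like cells and 252, 197 and 1372 in dendritic cell-like cells.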

How the data were processed

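Skin wounds of 1 library each on Days 3, 7 and 14 were measured. The authors made the deposited files with Cell Ranger 6.0.0 against mm10, per the submitters' processing notes, as raw counts of UMIs with no normalisation. The annotation is not given in the sources used here. Symbols were matched for 32158 of 32285 identifiers. Barcodes were kept from 200 genes and 500 UMIs up, with a mitochondrial share of no more than 10%, which left 4452, 21568 and 14472, and the highest simulated-doublet scores (92, 1978 and 962 cells) were removed. Doublets remain possible in every class. The 2000 most variable genes, without the members, the pathway genes and other named genes (205 in all), gave 30 principal components and, on 15 neighbours, Leiden clusters at resolution 1. A cluster was named from at least 3 of its class's fixed markers, by a scoring rule that was adjusted after the clusters were seen. Each class was summed within its library and expressed as CPM (scaled to 1000000 UMIs) with exact 95% Poisson intervals, and ratios between days carry exact conditional binomial intervals. Ratios need at least 10 UMIs in each library, and a ratio past 2-fold is what counts as higher or lower in the counts of genes. All 40 counted members reach 50 CPM in a class or pass 2-fold in macrophage-like or fibroblast-like cells, so all are named. The ratio code was tested on simulated data. The members and lists were chosen with earlier results of these data known. Software was Python 3.11.15, NumPy 2.4.6, SciPy 1.17.1, scikit-learn 1.9.0, leidenalg 0.10.2 and matplotlib 3.10.9. A result that needs an item withheld from the text is not reported here.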

Additional observations from a re-analysis of the deposited data

Results flagged for a closer look

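Between Day 7 and Day 14 some of the 41 genes were 2-fold or more higher in a class and 2-fold or more lower in another. With 1 library per day the differences were not tested, and the values are log2 ratios of Day 14 to Day 7 with counting intervals. *Cxcl10* had 4.15 (3.86 to 4.45) in pericyte-like and -1.86 (-2.41 to -1.35) in dendritic cell-like cells, a difference of 6.01. *Isg15* had 2.42 (2.11 to 2.75) in pericyte-like and -1.04 (-1.39 to -0.71) in dendritic cell-like cells, a difference of 3.47. *Rsad2* had 1.44 (0.41 to 2.61) in pericyte-like and -1.33 (-1.50 to -1.17) in macrophage-like cells, a difference of 2.78. *Ifit1* and *Ifit2* had 1.41 each in endothelial cell-like cells, with low ends of 0.60 and 0.53, and -1.91 and -1.47 in macrophage-like cells, differences of 3.32 and 2.88. *Slfn5* had 1.03 (0.86 to 1.20) in endothelial cell-like and -1.75 (-2.01 to -1.49) in dendritic cell-like cells, a difference of 2.78. *Gbp3* had 1.13 (0.49 to 1.82) in pericyte-like and -1.11 (-2.35 to 0.017) in T cell-like cells, a difference of 2.24 whose T cell-like side reaches 0. Each class was scaled to its own sum of UMIs in each library, so scaling can move the classes of a pair differently. The median log2 ratio of all genes was -0.21 in pericyte-like, -0.13 in endothelial cell-like, -0.15 in dendritic cell-like, -0.096 in macrophage-like and -0.0063 in T cell-like cells. The part of scaling in these differences was not tested.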

How the results depend on the processing

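With 1 library per day no library could be left out, and no paired analysis was possible because each day has a single library. Of 64 member ratios past 2-fold in macrophage-like or fibroblast-like cells, recomputed under 10 alternatives each, all 640 values kept their direction and 613 were still past 2-fold. Single genes of the other classes were not recomputed. Only the type II led sum of fibroblast-like cells from Day 3 to Day 7 (log2 ratio -0.18) turned direction, to 0.054 without the 50 most abundant genes and 0.040 as mean CPM per cell, so no direction is held for it, and the cause was not tested. The other log2 ratios of sums that moved past their counting interval kept their direction. In macrophage-like cells the type I led ratio of Day 7 to Day 3 was -1.01 without the 50 most abundant genes, -1.21 as mean CPM per cell, -1.24 with at least 500 genes per cell and -1.71 without the 4 most abundant members, and that of Day 14 to Day 7 was -0.27, -0.14 with median-of-ratios scaling, -0.22 as mean CPM per cell, -0.26 with each library clustered alone and -0.60 without those members. In fibroblast-like cells the type I led ratio of Day 7 to Day 3 was -0.27 without the 50 most abundant genes and as mean CPM per cell, -0.37 with median-of-ratios scaling, -0.55 and -0.46 with at most 5% and 20% mitochondrial UMIs, -0.69 with libraries clustered alone and -1.44 without the 4 members, and that of Day 14 to Day 7 was -0.030, -0.28 (mean CPM per cell), -0.19 (class per cell from its markers), -0.20 (libraries clustered alone) and -0.36 (without the members). The type II led ratio of macrophage-like cells was -0.39, -0.53, -0.68 (at most 5% mitochondrial UMIs) and -0.69 (class per cell) for Day 7 to Day 3 and 0.47 and 0.61 for Day 14 to Day 7. In fibroblast-like cells it was -0.050, -0.29 and -0.73 for the first step and 0.92, 0.61, 0.76 and 0.93 for the second, where mean CPM per cell also left 1 gene in place of 3 past 2-fold. The pericyte-like ratios were 0.99, 0.59, 0.56 (doublets kept) and 0.84 for type I led and 2.83, 2.38, 2.26, 2.23 (class per cell) and 2.31 for type II led genes, and the endothelial cell-like ratios 0.90, 0.61 and 0.57, and 1.83, 1.55 and 1.76. Thinned to 1000 UMIs, 86.6%, 68.1% and 65.7% of macrophage-like cells with at least that many UMIs held a type I led UMI. At 500 UMIs the shares were 72.0%, 48.6% and 46.1%, of a set that includes the cells of lower depth. Median-of-ratios scaling moved all genes by more than 0.1 log2 units in fibroblast-like, pericyte-like and endothelial cell-like cells, and ratios there are relative to total UMIs. The pericyte-like and endothelial cell-like comparisons, the sums without abundant members and the values within clusters were added after the data were seen. Counting limits the rarest genes most, and levels from under 3 UMIs are not read as levels.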
